A study of Mus musculus with 6 samples.

Results

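The genes described here are the 4 ligand and receptor systems that steer growing nerve fibres and that also act on blood vessels and blood cells. They are the ephrins and their Eph receptors, the semaphorins and their plexin receptors, the Slits and their Robo receptors, and the netrins and their Unc5 receptors. Members were taken by gene symbol, and each gene was represented by its brightest probe among those annotated with 1 symbol. This gave 65 genes of the 22180 with such a probe, namely 13 Eph receptors, 8 ephrins, 20 semaphorins, 10 plexin symbols, 4 Robo receptors, 3 Slits, 4 Unc5 receptors and 3 netrins. One of the 10 plexin symbols, Plxna4os1, is an RNA antisense to Plxna4 and not a receptor. Ephb2 and Ntn5 were not analysed here.

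Expression was profiled on 6 arrays, 3 of YFP-positive and 3 of YFP-negative LSK cells from mouse bone marrow, LSK being the gate for cells that lack lineage markers and carry Sca-1 and Kit. The mice were of C57Bl6 background and carried Tg(Cdh5-Cre/ERT2), a Cre recombinase active only with tamoxifen and driven by the promoter of the endothelial cadherin gene Cdh5, together with a Rosa 26 YFP reporter. All were given tamoxifen on days 1, 2 and 3 after birth and were used at postnatal day 27, 26 days after the first dose. Both populations thus came from mice with the same transgenes and the same drug. YFP marks a cell in which Cre was active or whose ancestor had active Cre, so it marks endothelial cells as well as any blood cell derived from them. Nothing in the labels ties a replicate to a separate animal, and the p-values therefore measure only how these samples vary, and that variation may be technical.

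As background, each of these systems passes a signal from a ligand to a receptor that reshapes the actin skeleton and adhesion of the receiving cell. Ephrins are held in the membrane and signal on contact, with ephrin-B2 typical of arteries and its receptor Ephb4 of veins. Plexins receive semaphorins, and class 3 semaphorins mostly need a neuropilin as partner, apart from Sema3e, which binds Plxnd1 on endothelium directly. Robo4 is largely restricted to endothelium and is also known from blood stem cells, while Plxnc1 and Sema4d are known from leukocytes.

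The markers of the 2 populations bear on every value below. Cdh5 stood at 11.63, 11.84 and 11.29 on YFP-positive arrays 1, 2 and 3, against 5.40, 4.55 and 3.71 on YFP-negative arrays 1, 2 and 3 (all values log2). Of 16 endothelial marker genes that are not guidance genes, 15 passed the test in YFP-positive cells (all higher), and of 9 sinusoidal markers 7 did. The summed level of the endothelial list ranged from 13.41 to 13.97 in YFP-positive and from 9.85 to 10.56 in YFP-negative arrays (log2 of the sum), and that of the sinusoidal list from 12.47 to 12.92 and from 6.97 to 7.01. Of the sinusoidal list, Clec4g and Lyve1 did not pass. Clec4g lay under the array medians on all arrays. Lyve1 lay above them on all 6 arrays and differed by -0.01 (limma adjusted p = 0.975). Of 9 stem and progenitor markers, 6 fell and 0 rose, with summed levels of 9.19 to 9.79 in YFP-positive and 11.64 to 11.82 in YFP-negative arrays. Kit, part of the LSK gate, stood at 6.98, 6.56 and 7.06 on the YFP-positive arrays, against 7.57, 7.96 and 7.74 on the YFP-negative ones, above the array medians throughout. The leukocyte list separated the YFP-positive arrays among themselves. Its median difference from the YFP-negative mean was -2.32, -2.33 and 0.14 on YFP-positive arrays 1, 2 and 3, and Ptprc, which encodes the leukocyte protein CD45, stood at 6.52, 6.95 and 9.52 there against 9.23 to 9.37 in YFP-negative cells. Of the list's 12 genes, 3 fell, namely Cd48, Fermt3 and Vav1. On YFP-positive array 3 they stood at 6.37, 4.69 and 5.22, against YFP-negative means of 8.86, 6.10 and 7.75. The list's summed level ranged from 10.40 to 12.38 in YFP-positive and from 12.25 to 12.32 in YFP-negative arrays. In such pooled cells, fewer cells of a type and less RNA per cell cannot be told apart, and whether the guidance genes below moved with the share of endothelial cells in the sort was not tested.

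**Figure D1:**
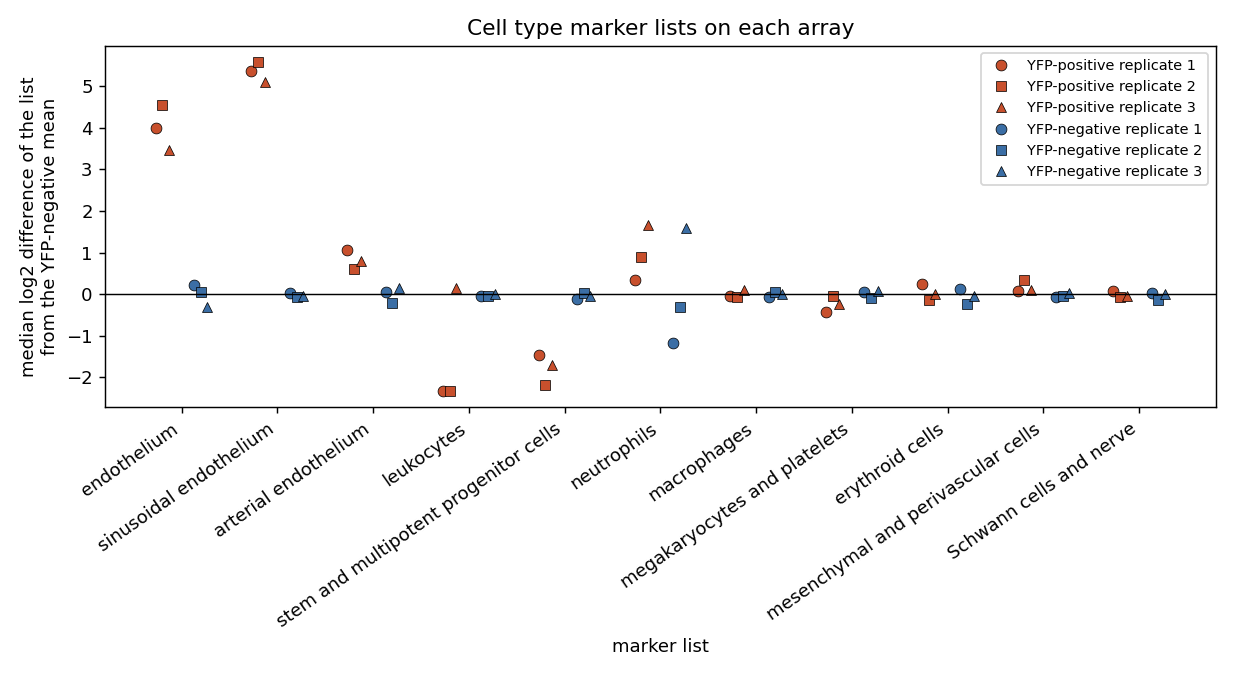
Median log2 difference of each marker list from its YFP-negative mean (vertical axis) for 11 lists (horizontal axis), 1 point per array, orange for YFP-positive and blue for YFP-negative arrays, with the symbol giving the replicate. The endothelial and sinusoidal lists were higher on all 3 YFP-positive arrays, and the leukocyte list was lower on YFP-positive arrays 1 and 2 but at 0.14 on array 3.

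In YFP-positive cells 12 of the 65 guidance genes were higher than in YFP-negative cells, 0 were lower and the other 53 missed the threshold of limma's test (Benjamini-Hochberg adjusted p under 0.05 over all 22180 genes). Those that rose were the plexins Plxnd1, Plxna2, Plxna4 and Plxnb2, the semaphorins Sema6d, Sema6a and Sema3a, the Eph receptors Ephb4 and Epha2, the ephrin Efnb1 and the Robo receptors Robo1 and Robo4. The share higher was 18.5%, against 2.88% of all genes, and 1.96% of all genes were lower. In either direction 4.84% of all genes passed. At an unadjusted p under 0.05 there were 22 guidance genes (33.8%), 20 higher and 2 lower, against 17.2% of all genes. With the unmoderated model 2 rose and 0 fell, and 0.812% of all genes passed. The median difference of the 65 genes was 0.07 on the log2 scale, against -0.01 over all genes. For 43 of the 65 genes (66.2%) the 95% interval of the difference stayed within 1 log2 unit of 0, against 72.7% of all genes.

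All 3 YFP-positive arrays lay above all 3 YFP-negative arrays for 20 of the 65 genes (30.8%), where 10.8% of all genes did so. They lay below for 2 genes (3.08%), where 11.9% of all genes did so. By role, 8 of 30 receptors and 4 of 34 ligands rose, while none of the 3 Slits, 4 Unc5 receptors and 3 netrins passed in limma (0 had a p under 0.05 before adjustment). On all 6 arrays 17 of the 65 genes lay under the median of all probes, where a level cannot be told from background. A fold change against such a level can understate the difference.

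**Figure D2:**
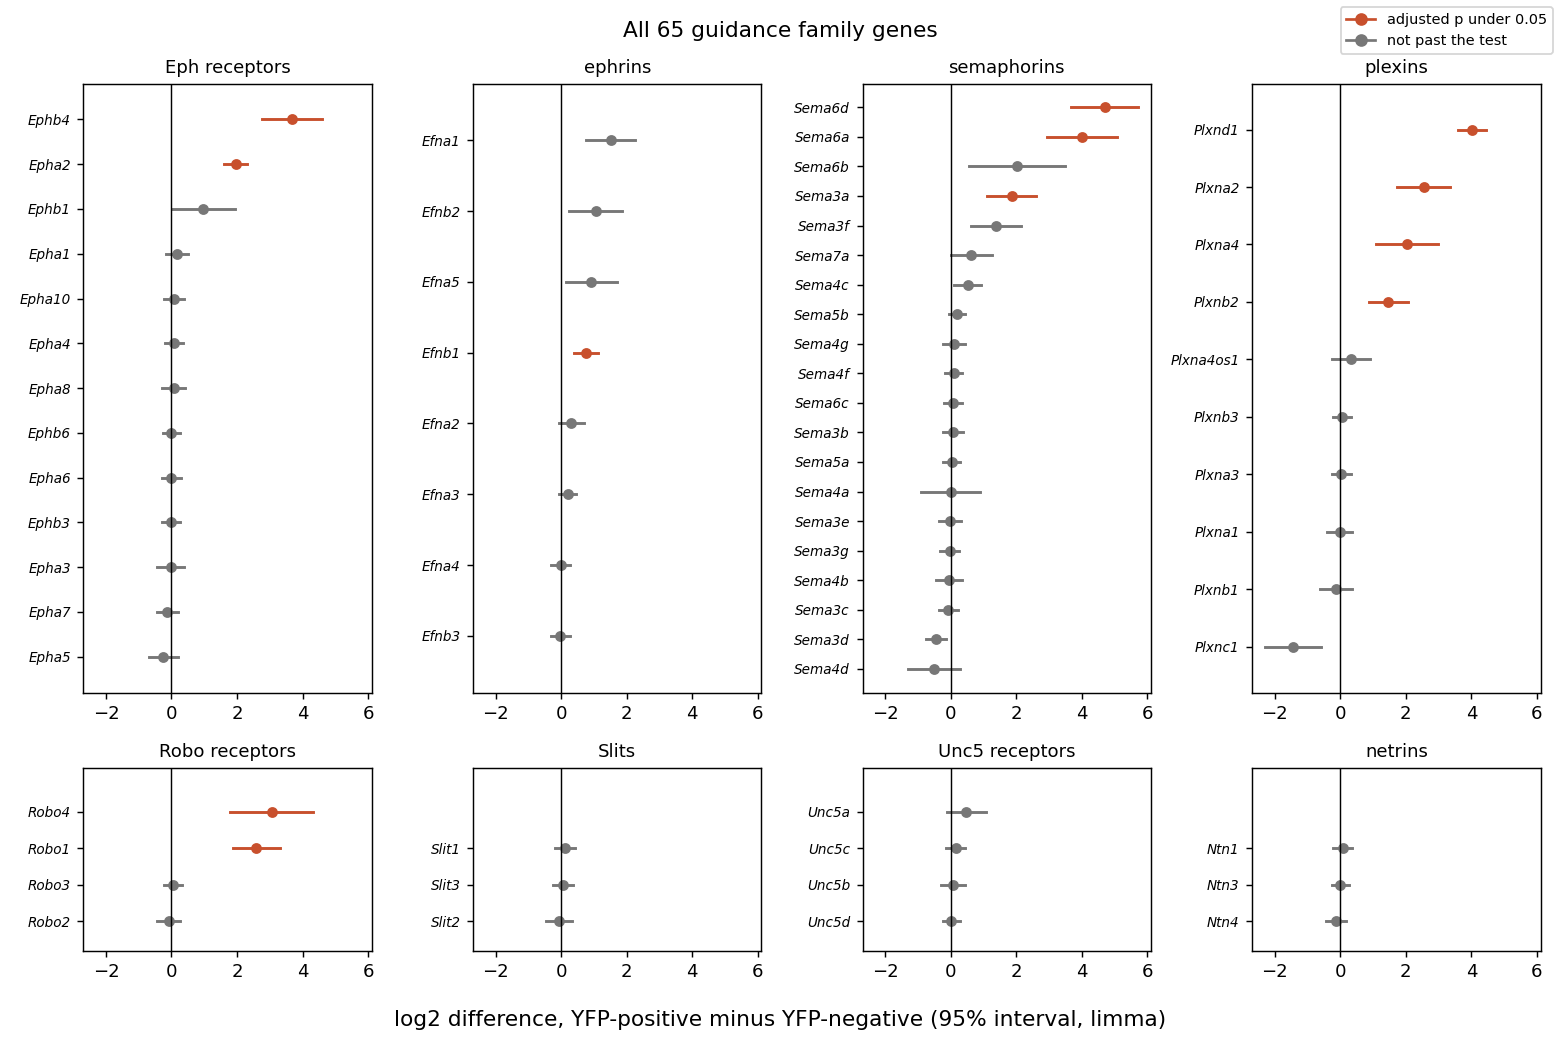
Log2 difference, YFP-positive minus YFP-negative (horizontal axes), of each of the 65 genes by family, with 95% intervals from limma. Orange marks the 12 genes past an adjusted p of 0.05, all to the right of 0, and grey the other 53.

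Of the plexins, 4 rose, 2 of class A, 1 of class B and Plxnd1. Plxnd1, the endothelial plexin, stood at 9.25, 9.09 and 8.68 on YFP-positive arrays 1, 2 and 3, against 5.14, 4.96 and 4.88 on the YFP-negative arrays. The groups were far apart, and each was tight. Plxnd1 was 16.2-fold higher in YFP-positive cells (log2 difference 4.01 ± 0.18, SE, n = 3 each), with limma's adjusted p = 0.000299, the smallest among the guidance genes. Plxna2, a receptor of class 6 semaphorins and of neuropilin-bound class 3 semaphorins, stood at 6.45, 6.43 and 5.31, against 3.78, 3.34 and 3.44. Array 3 was the lowest of the YFP-positive arrays, and the groups did not overlap. Plxna2 was 5.84-fold higher (2.55 ± 0.33, SE, limma adjusted p = 0.014). On YFP-negative arrays 2 and 3 it lay under the array medians, so this fold can be understated. The call was not kept when YFP-negative array 2 (0.0622) or 3 (0.0529) was left out.

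Plxna4, a close relative of Plxna2, stood at 7.43, 5.91 and 6.23 on the YFP-positive arrays, against 4.62, 4.43 and 4.45 on the YFP-negative arrays. Array 1 was the highest by more than 1 log2 unit, and the groups did not overlap. Plxna4 was 4.07-fold higher (2.02 ± 0.39, SE, limma adjusted p = 0.0444). It no longer passed when YFP-positive array 3 (0.0679) or YFP-negative array 1 (0.126), 2 (0.141) or 3 (0.118) was left out. The antisense RNA Plxna4os1 did not pass (0.34, adjusted p = 0.578), with values from 5.15 to 5.40 in YFP-positive cells, against 4.65 to 5.46 in the YFP-negative ones. Plxnb2, a receptor of class 4 semaphorins such as Sema4c and Sema4d, stood at 6.12, 6.13 and 5.31, against 4.49, 4.44 and 4.24. Its groups did not overlap, again with array 3 the lowest of the YFP-positive ones. Plxnb2 was 2.76-fold higher (1.47 ± 0.24, SE, limma adjusted p = 0.0287), but when each of the 6 arrays was left out in turn it passed in 1 case only, without YFP-positive array 3 (0.00408). Its adjusted p was 0.0821 to 0.0981 in the other 5.

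Plxnc1, the receptor of Sema7a, went the other way. It stood at 5.27, 5.97 and 6.65 on YFP-positive arrays 1, 2 and 3, against 7.36, 7.62 and 7.24 on the YFP-negative arrays. All YFP-positive arrays were lower, with array 3 nearest to the YFP-negative ones, as it was for the leukocyte list, whose median difference there was 0.14 against -2.32 and -2.33. Plxnc1 measured 2.71-fold lower in YFP-positive cells (-1.44 ± 0.35, SE) and did not pass (limma adjusted p = 0.0837). It passed without YFP-positive array 3 (-1.78, adjusted p = 0.0226). The part of the leukocyte content of each array in this difference was not tested. Plxna1, Plxna3, Plxnb1 and Plxnb3 had differences between -0.13 and 0.06, with adjusted p of 0.836 or more.

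**Figure D3:**
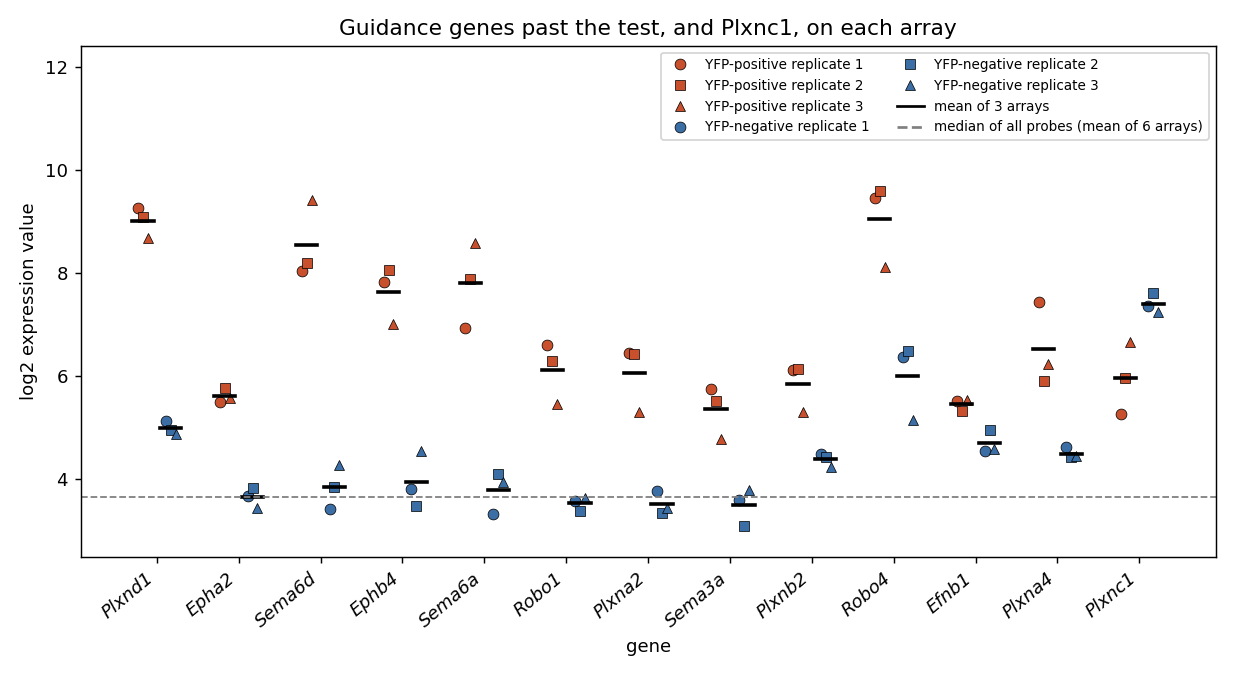
Log2 expression values (vertical axis) of the 12 guidance genes past the test and of Plxnc1 on each array, orange for YFP-positive and blue for YFP-negative, symbols for replicates and black bars for the means of 3 arrays. The groups do not overlap for any of the 13 genes, Plxnc1 alone is lower in YFP-positive cells, and array 3 (triangles) is the highest YFP-positive array for Sema6d and Sema6a but the lowest for Robo4, Robo1 and Plxna2.

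Among the ligands of the plexins, 3 of 20 semaphorins rose, and 2 of those are the class 6 members Sema6d and Sema6a, which are anchored in the membrane. Sema6d, a ligand of Plxna1, stood at 8.03, 8.19 and 9.41 on YFP-positive arrays 1, 2 and 3, against 3.43, 3.85 and 4.29 on the YFP-negative arrays. It had the largest log2 difference of the 65 genes (4.69 ± 0.42, SE, 25.9-fold, limma adjusted p = 0.00341). Sema6a, a ligand of Plxna2 and Plxna4, stood at 6.94, 7.89 and 8.57, against 3.32, 4.10 and 3.95, which is 16.1-fold higher (4.01 ± 0.44, SE, limma adjusted p = 0.00752). For both genes YFP-positive array 3 was the highest array, and the groups were more than 2 log2 units apart. Without that array the differences were 4.26 and 3.63 (adjusted p = 0.00239 and 0.0094). Sema6b, another ligand of Plxna4, stood at 7.30, 6.06 and 4.80, against 3.73, 4.08 and 4.28. Its YFP-positive arrays spread over more than 2 log2 units with array 3 the lowest, yet did not overlap the others. Sema6b measured 4.07-fold higher and did not pass (2.02 ± 0.60, SE, limma adjusted p = 0.147), though it did without YFP-positive array 3 (adjusted p = 0.0275). Sema6c differed by 0.07 (adjusted p = 0.839).

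Of 7 class 3 semaphorins, which are secreted, Sema3a rose. Sema3a, the repulsive ligand that binds Nrp1, stood at 5.76, 5.52 and 4.78 on the YFP-positive arrays, against 3.60, 3.10 and 3.79 on the YFP-negative arrays, 3.62-fold higher (1.86 ± 0.31, SE, limma adjusted p = 0.0271). The groups did not overlap, and the 3 YFP-negative values lay near the array medians of 3.62 to 3.68. Leaving out each array in turn, Sema3a passed without YFP-positive array 3 (0.0118) and had an adjusted p of 0.0579 to 0.0913 in the other 5 cases. Sema3f, which binds Nrp2, stood at 7.14, 6.75 and 5.93, against 5.26, 5.08 and 5.38. The groups did not overlap, but Sema3f did not pass (1.37 ± 0.31, SE, limma adjusted p = 0.0726). Without YFP-positive array 3 it passed (adjusted p = 0.00983). Sema3d measured lower on all 3 YFP-positive arrays, at 2.70, 2.89 and 2.97 against 3.20, 3.45 and 3.26, but all 6 values lay under the array medians and it did not pass (adjusted p = 0.13). Sema3g, known from arterial endothelium, stood at 4.04 to 4.24 in YFP-positive and at 4.06 to 4.29 in YFP-negative cells (difference -0.03, 95% interval -0.32 to 0.26).

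None of the 6 class 4 semaphorins passed in limma (1 had a p under 0.05 before adjustment). That one was Sema4c, at 4.80, 4.34 and 4.88 on the YFP-positive arrays, against 4.29, 4.04 and 4.15 on the YFP-negative arrays (0.51 ± 0.17, SE, limma adjusted p = 0.196). Its groups were separate by less than 0.1 log2 unit. Sema4d, the leukocyte semaphorin CD100, stood at 4.44, 5.24 and 5.74, against 5.60, 5.78 and 5.57, and did not pass (-0.51, adjusted p = 0.523). Its groups overlapped through array 3. Sema7a, the ligand of Plxnc1, stood at 4.24, 4.52 and 5.04, against 3.91, 3.71 and 4.30, with overlapping groups (0.63 ± 0.25, SE, limma adjusted p = 0.28). Sema4a stood at 4.21, 4.22 and 5.34, against 4.36, 4.38 and 5.04, with array 3 the highest on both sides.

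Both neuropilins, co-receptors of class 3 semaphorins and of vascular endothelial growth factor, rose. Nrp1 stood at 8.16, 8.27 and 6.43 on the YFP-positive arrays, against 3.35, 2.94 and 3.16 on the YFP-negative arrays (4.47 ± 0.50, SE, limma adjusted p = 0.00806). Its YFP-negative values all lay under the array medians, so this difference can be an underestimate. Nrp2 stood at 6.70, 7.67 and 7.79, against 3.94, 3.95 and 4.16 (3.37 ± 0.30, SE, 10.3-fold, limma adjusted p = 0.00341). Both had separate groups, and array 3 was the lowest YFP-positive array for Nrp1 and the highest for Nrp2.

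Of 13 Eph receptors, Ephb4 and Epha2 rose. Ephb4, the receptor of ephrin-B2 on veins, stood at 7.82, 8.05 and 7.02 on YFP-positive arrays 1, 2 and 3, against 3.82, 3.48 and 4.56 on the YFP-negative arrays. It was 12.8-fold higher (3.68 ± 0.37, SE, limma adjusted p = 0.00557), with groups more than 2 log2 units apart. Epha2, a receptor of ephrin-A1 on endothelial and epithelial cells, stood at 5.50, 5.77 and 5.58, against 3.67, 3.83 and 3.45. Its groups were tight and separate, and it was 3.90-fold higher (1.96 ± 0.14, SE, limma adjusted p = 0.00179). Both kept their call whichever array was left out. Ephb1 stood at 5.49, 5.38 and 4.02, against 3.90, 3.95 and 4.14. Array 3 lay among the YFP-negative values, and Ephb1 did not pass (0.97 ± 0.40, SE, limma adjusted p = 0.289) except without that array (1.44, adjusted p = 0.00702). The dimmer of its 2 probes differed by only 0.17. The other 10 Eph receptors had differences between -0.25 and 0.17 (adjusted p of 0.601 or more).

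Of the 8 ephrins, 1 rose. Efnb1, the ligand of several class B Eph receptors, stood at 5.51, 5.33 and 5.54 on the YFP-positive arrays, against 4.56, 4.95 and 4.59 on the YFP-negative arrays. The groups were separate, with a 1.70-fold difference (0.76 ± 0.15, SE, limma adjusted p = 0.0435). Efnb1 kept its call only without YFP-negative array 2 (0.0483), and its adjusted p was 0.0825 to 0.137 when any other array was left out. It was also lost with the arrays centred on their medians (0.0564), so this rise was at the edge of the test. Efna1, the ligand of Epha2, stood at 5.90, 5.92 and 4.81, against 4.04, 4.06 and 3.99. It measured 2.85-fold higher with no overlap and did not pass (1.51 ± 0.31, SE, limma adjusted p = 0.0534). Without YFP-positive array 3 it passed (adjusted p = 0.00195).

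Efnb2, the arterial ligand of Ephb4, stood at 5.07, 4.26 and 3.83 on the YFP-positive arrays, against 3.05, 3.31 and 3.65 on the YFP-negative arrays. The groups were separate by 0.2 log2 units or less, and Efnb2 did not pass (1.05 ± 0.34, SE, 95% interval 0.23 to 1.87, limma adjusted p = 0.174). The YFP-negative values all lay under the array medians, so the difference of Efnb2 can be an underestimate. Beside it, of 6 arterial markers that are not guidance genes 2 rose, the transcription factors Sox17 (1.65, limma adjusted p = 0.048) and Hey1 (1.43, 0.024), and the list's median difference was 0.89. The Notch ligand Dll4 had separate groups and did not pass (1.38, 0.119). The connexins Gja4, under the array medians on all 6 arrays, and Gja5 had differences of -0.09 and 0.08. Efna5, which binds class A Eph receptors, stood at 5.19, 4.04 and 4.28, against 3.37, 3.53 and 3.83, and did not pass (0.93 ± 0.32, SE, limma adjusted p = 0.202). Efna2, Efna3, Efna4 and Efnb3 had differences between -0.03 and 0.32.

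Of the 4 Robo receptors, Robo1 and Robo4 rose. Robo4 stood at 9.46, 9.58 and 8.12 on YFP-positive arrays 1, 2 and 3, against 6.37, 6.48 and 5.15 on the YFP-negative arrays. The groups were separate, and replicate 3 was the lowest of both. Robo4 was 8.29-fold higher (3.05 ± 0.52, SE, limma adjusted p = 0.0303), and its YFP-negative values lay at least 1.5 log2 units above the array medians. With arrays left out one by one it passed only without YFP-positive array 3 (0.0156), and its adjusted p was 0.0653 to 0.099 otherwise. Robo1, a receptor of Slits, stood at 6.61, 6.29 and 5.46, against 3.58, 3.39 and 3.64. It was higher with no overlap (log2 difference 2.58 ± 0.30, SE, limma adjusted p = 0.00882), and passed whichever array was left out. Its YFP-negative values lay under the array medians, so its difference can be understated. Robo2 and Robo3 had differences of -0.09 and 0.05.

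No ligand or receptor of the Slit and netrin systems other than those Robo receptors passed. The 3 Slits stood at 3.09 to 3.93 over all arrays, with differences between -0.06 and 0.12. The netrins Ntn1, Ntn3 and Ntn4 stood at 2.90 to 3.80, with differences between -0.13 and 0.07. Slit2 and Ntn4 lay under the array medians on all 6 arrays. Unc5b, the netrin receptor known from endothelial tip cells, stood at 3.49, 3.71 and 3.21 on the YFP-positive arrays, against 3.41, 3.48 and 3.31 on the YFP-negative arrays (0.07, 95% interval -0.31 to 0.44). It lay above the array median on only 1 of 6 arrays, so its small difference cannot be told from background. Unc5a had the largest difference of its family (0.48, limma adjusted p = 0.408), with overlapping groups. Dcc and Neo1, the other netrin receptors, differed by -0.15 and 0.07 and lay under the array medians on all 6 arrays.

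Set side by side, the known partners did not move as pairs throughout. Sema6a rose together with its receptors Plxna2 and Plxna4, and Sema3a (1.86) together with Nrp1 (4.47). Epha2 rose by 1.96 beside a difference of 1.51 for Efna1, and Nrp2 by 3.37 beside 1.37 for Sema3f. Efna1 and Sema3f did not pass, but their groups did not overlap. Sema6d rose by 4.69, while its receptor Plxna1 differed by -0.01 (95% interval -0.39 to 0.36). The dimmer of the 2 Plxna1 probes differed by 0.36. Plxnd1 rose by 4.01, while its ligand Sema3e differed by -0.02 (-0.35 to 0.31) and lay under the array medians on all 6 arrays. Ephb4 rose by 3.68 beside a difference of 1.05 for Efnb2 (0.23 to 1.87), which did not pass and can be understated. Robo1 rose by 2.58 beside -0.06 for Slit2 (-0.46 to 0.34), which also lay under the array medians on all 6 arrays. For ligands at such levels a small difference cannot be told from background. Differences between 2 genes of a pair were not tested.

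The promoters of 4 receptor genes are shown because these genes had the largest measured rise among the plexins, Eph receptors and Robo receptors, or, for Plxnc1, the opposite direction. The order of Robo4 over Robo1 is not firm, since Robo1 was under the array medians in YFP-negative cells. Promoter sequences from RefSeq (GRCm38.p6), running from 250 bases before to 50 bases after the start of the gene, matched 55 of the 65 genes. Each is written 5′ to 3′ along the gene, and capitals mark GGAAG on either strand, a form of the letters read by ETS factors. Other forms are not marked or counted. The windows are chr6:115994956-115995255 on the minus strand for Plxnd1, chr5:137349859-137350158 on the plus strand for Ephb4, chr9:37401722-37402021 on the plus strand for Robo4 and chr10:94944796-94945095 on the minus strand for Plxnc1.
Plxnd1: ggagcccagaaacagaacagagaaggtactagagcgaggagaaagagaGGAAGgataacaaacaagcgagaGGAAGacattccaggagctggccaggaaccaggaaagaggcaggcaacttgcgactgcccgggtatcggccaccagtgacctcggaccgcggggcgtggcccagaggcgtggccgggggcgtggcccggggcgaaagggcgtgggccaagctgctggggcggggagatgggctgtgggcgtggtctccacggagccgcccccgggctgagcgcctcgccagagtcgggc
Ephb4: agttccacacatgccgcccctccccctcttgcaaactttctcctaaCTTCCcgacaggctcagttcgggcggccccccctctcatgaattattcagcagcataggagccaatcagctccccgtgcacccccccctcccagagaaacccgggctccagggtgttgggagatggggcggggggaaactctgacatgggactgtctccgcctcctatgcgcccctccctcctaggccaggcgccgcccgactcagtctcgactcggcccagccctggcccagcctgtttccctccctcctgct
Robo4: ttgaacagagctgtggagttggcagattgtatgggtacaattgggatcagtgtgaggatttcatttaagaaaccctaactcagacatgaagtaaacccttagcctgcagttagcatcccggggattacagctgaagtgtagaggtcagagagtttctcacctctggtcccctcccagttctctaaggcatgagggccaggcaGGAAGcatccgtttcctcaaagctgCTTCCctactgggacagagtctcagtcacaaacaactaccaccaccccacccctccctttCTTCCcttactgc
Plxnc1: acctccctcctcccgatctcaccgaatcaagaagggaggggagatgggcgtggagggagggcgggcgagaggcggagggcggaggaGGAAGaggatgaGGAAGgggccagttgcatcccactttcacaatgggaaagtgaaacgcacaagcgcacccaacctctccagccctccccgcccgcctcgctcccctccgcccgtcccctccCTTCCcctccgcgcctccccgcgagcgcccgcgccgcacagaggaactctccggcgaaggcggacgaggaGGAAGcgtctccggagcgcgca
GGAAG occurred 2 times in the window of Plxnd1, 1 time in that of Ephb4, 3 times in that of Robo4 and 4 times in that of Plxnc1, so the letters were present in all 4 windows. They occurred in 50 of the 71 promoters of guidance genes (70.4%), in 9 of the 12 promoters of the genes that rose, and in 71.4% of all 32851 promoters in the table. Those 12 promoters belong to 10 of the 12 genes that rose, the others having none in the table. The GC box letters GGGCGG, also on either strand, occurred 2, 4, 0 and 4 times in the same windows. They were in 71.8% of the guidance gene promoters and in 35.7% of all promoters. GATAA, the GATA factor core, was in 12.7% and 25.4%, and the E-box CAGCTG in 15.5% and 16.3%. Of the 12 promoters of the genes that rose, 7 held GGGCGG, 3 GATAA and 1 CAGCTG. Some genes have several promoters in the table, and a match describes letters, not binding.

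YFP-positive array 3 differed from arrays 1 and 2 in several guidance genes. Among the 12 that rose, it was the lowest YFP-positive array for 7 genes, the highest for 3 and between the others for 2, with a median of -0.65 against the mean of arrays 1 and 2. Robo4 differed from that mean by -1.40 and Plxna2 by -1.13, while Sema6d was higher by 1.30 and Sema6a by 1.16. The endothelial list's median difference was 3.48 on that array against 4.01 and 4.56 on arrays 1 and 2, and the sinusoidal list's was 5.10 against 5.37 and 5.58. Without array 3, 14 guidance genes rose and 1 fell (5.34% of all genes passed). The genes gained were Efna1, Ephb1, Sema3f and Sema6b, all higher, and Plxnc1, lower, and those lost were Efnb1 and Plxna4. Without YFP-positive array 1 or 2, 8 rose, and without YFP-negative array 1, 2 or 3, 7, 7 and 6 rose, where 1.94% to 2.75% of all genes passed. Plxnd1, Epha2, Sema6d, Ephb4, Sema6a and Robo1 kept their call in all 6 of these fits.

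**Figure D4:**
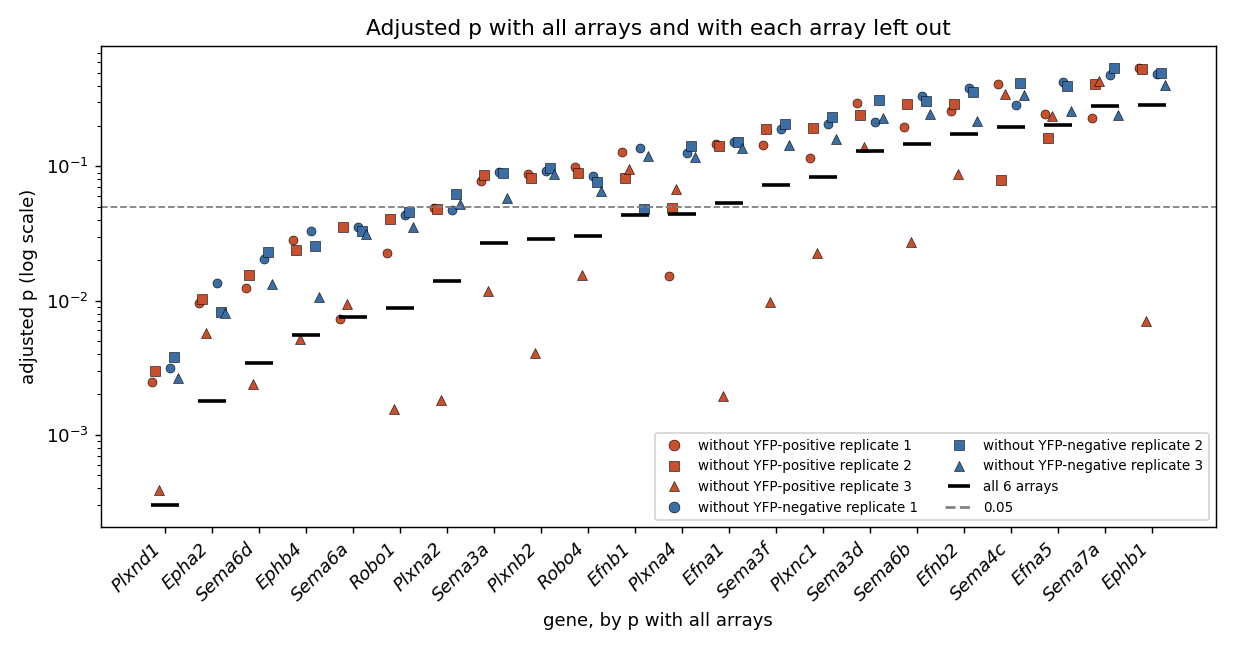
Adjusted p from limma (vertical log axis) for the 22 guidance genes with an unadjusted p under 0.05, with all 6 arrays (black bars) and with each array left out (points, orange for a YFP-positive and blue for a YFP-negative array). The 6 genes at the left stay under the dashed line at 0.05 throughout, and leaving out YFP-positive array 3 (orange triangles) brings Efna1, Sema3f, Plxnc1, Sema6b and Ephb1 under it.

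Beyond the families themselves, a list of 95 genes that work with them or below them was followed, of which 89 were measured. The list was written with earlier results of these data known. Of these, 13 rose (14.6%, against 2.88% of all genes) and 0 fell in limma (4 were lower with a p under 0.05 before adjustment, and the unmoderated model gave 0). Their median difference was 0.21, against -0.01 over all genes. Of 16 co-receptors, 5 rose, which were Nrp1, Nrp2, Kdr, Itga1 and Itgb1. Kdr, a growth factor receptor that can join plexin complexes, differed by 6.67 (limma adjusted p = 4.31e-05) and is also on the endothelial marker list. Itga1 and Itgb1, the integrin subunits that bind Sema7a, differed by 3.92 (adjusted p = 0.00125) and 0.99 (0.0497), and with arrays left out one by one Itgb1 passed only without YFP-positive array 3 (adjusted p 0.0497 to 0.156).

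Among the other partner genes that rose, Srgap1 and Srgap2, which act below Robo receptors, differed by 2.27 (limma adjusted p = 0.00517) and 1.99 (0.0216). Srgap1 stood at 6.51, 6.45 and 5.79 on the YFP-positive arrays, against 3.92, 4.19 and 3.83 on the YFP-negative arrays, and its groups did not overlap. Arhgef12, an exchange factor that binds class B plexins, differed by 2.40 (adjusted p = 0.0197), Dock1 by 2.29 (0.00704) and Trio, an exchange factor of netrin signalling, by 1.12 (0.0183). Rac1, which drives actin assembly at the cell edge, differed by 0.63 (0.0433). Of 21 adaptors and kinases, Fer rose (1.11, 0.0158), and of 18 cytoskeletal effectors Mical3, of a family that oxidises actin below plexins, rose (1.14, 0.00341). None of the 9 genes of ligand processing passed in limma (3 had a p under 0.05 before adjustment). Srgap2, Arhgef12, Trio, Rac1 and Fer each missed the threshold for 3 to 5 choices of the array left out (highest p after adjustment 0.0738, 0.0795, 0.0729, 0.136 and 0.0656), and Nrp1, Nrp2, Kdr, Itga1, Srgap1, Dock1 and Mical3 passed for all 6. Over the whole list, 8 and 10 genes rose without YFP-positive array 1 and 2, 15 without YFP-positive array 3, and 9, 8 and 7 without YFP-negative array 1, 2 and 3.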

How the data were processed

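Each array's values are deposited as log2 expression, 1 column per array for 41345 probes, and the authors processed them with Partek, per the submitters' processing notes, which give no version. For background correction, summarisation and normalization the record is silent (not given in the sources used here). That the scale is log2 was read from the values. Per the labels' protocols, 500 pg of RNA per sample was amplified. Array medians lay between 3.62 and 3.68. No detection calls were used, and the number of arrays limits the precision.

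Of 25335 annotated probes, 23521 had 1 symbol and 1814 several. The rest of the table was unnamed here. All 65 symbols were found in a RefSeq table (GRCm38.p6) by gene identifier. Where a gene had several probes (3 of the 65), the brightest over 6 arrays was used. No filter on low values was applied.

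Populations were compared with limma 3.58.1 in R 4.3.3 (lmFit, eBayes, two-sided, Benjamini-Hochberg over 22180 genes, threshold 0.05), tested first on simulated data. Differences are YFP-positive minus YFP-negative, with the moderated SE and 95% intervals.

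The guidance genes, partner genes and marker lists were chosen with earlier results of these data known. Named guidance genes had an adjusted or unadjusted p under 0.05 or a group mean at least 2 above the median of all probes. Sema3g, Sema4a, Sema4d, Unc5a, Unc5b, Plxna1, Sema3e, Slit2 and others outside that rule are named for their known roles or after their values were seen. The named partner genes are those past the threshold. The count of 1 class of partner genes is not reported here.

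Alternatives were the replicate number as a block, quantile normalization, median centring, the mean of a gene's probes, a filter on low values, trend and robust variance, an unmoderated model, and leaving out each array. The labels do not state that same-numbered arrays of the 2 populations were paired, so the comparison has no block.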

Additional observations from a re-analysis of the deposited data

How the results depend on the processing

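Of the 12 guidance genes that rose, Plxnd1 and Epha2 passed in all 13 alternatives. Sema6d, Ephb4, Sema6a and Robo1 failed only with the unmoderated model (adjusted p = 0.0646 to 0.0908). That model left 2 guidance genes, 3 partner genes and 180 of all genes past the threshold. Leaving out each array in turn, the guidance genes that rose numbered 6 to 14, those that fell 0 to 1, the partner genes that rose 7 to 15 and all genes past the threshold 430 to 1185. The number of guidance genes that rose was 12 with quantile normalization, with the mean of a gene's probes and with trend and robust variance. Of all genes, 4.46%, 4.75% and 4.29% passed there, against 4.84% in the main fit. With median centring 11 rose, and 4.8% of all genes passed. With the filter on low values 14 rose, with Efna1 and Sema3f added. The filter left 44 of the 65 to be tested, and 9.23% of the 12855 genes it kept passed. The trend and robust fit gained Efna1 and lost Efnb1. The cause of these changes was not tested. None of the 12 guidance and 13 partner genes past the threshold changed direction in any of these alternatives.

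Replicate numbers are shared by the labels of both populations. Deviations of same-numbered arrays from their population means correlated at r = 0.098, 0.081 and 0.167 across genes, and each array correlated best with its own number, which is a hint from the data and not from the design. With the number as a replicate block, 580 of all genes passed, 9 guidance genes rose, without Sema3a, Efnb1 and Plxna4, and 10 partner genes rose, without Fer (0.0719), Itgb1 (0.0519) and Rac1 (0.113). Rac1 was also lost with the filter on low values (0.0568), and Rac1 (0.11) and Itgb1 (0.0712) with trend and robust variance.

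Levels under the array medians, as for 17 of the 65 genes on all arrays, cannot be told from background.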

Other observations

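Markers of Schwann cells and nerve, the classical setting of these genes, were not seen to differ between the populations. Of 6 measured, 0 passed in limma (0 had a p under 0.05 before adjustment), 3 lay above the array medians on all arrays and 3 under them, and the list's summed level ranged from 6.42 to 6.48 in YFP-positive and from 6.40 to 6.55 in YFP-negative arrays (log2 of the sum). Among 10 mesenchymal and perivascular markers, Kcnj8, a potassium channel subunit of pericytes, was the 1 gene of the list that rose. It stood at 9.71, 10.56 and 9.13 on YFP-positive arrays 1, 2 and 3, against 3.03, 3.73 and 3.42 on the YFP-negative arrays (limma adjusted p = 0.00086). Rgs5, Acta2 and Pdgfrb of the same list differed by 0.41, 0.14 and -0.30 and did not pass (limma adjusted p = 0.399, 0.882 and 0.238). Pdgfrb was lower on all 3 YFP-positive arrays. Cxcl12 differed by 1.82 and did not pass (0.2). The collagen genes Col1a1, Col1a2 and Col3a1 of that list differed by -0.03, 0.15 and 0.03. Lepr, a receptor of marrow stroma, stood at 3.72, 6.02 and 4.62, against 3.01, 2.84 and 2.91, and did not pass (adjusted p = 0.143).

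Neutrophil markers varied within both populations, with list medians of 0.34, 0.90 and 1.66 on YFP-positive arrays 1, 2 and 3, and -1.18, -0.30 and 1.59 on YFP-negative arrays 1, 2 and 3, relative to the YFP-negative mean. None of the 10 passed in limma (0 had a p under 0.05 before adjustment). Replicate 3 was the highest of both populations, as it was for Sema4a. Of 10 macrophage markers, 1 rose, Mertk (1.74, limma adjusted p = 0.046). Of 7 megakaryocyte and 5 erythroid markers, 0 passed (0 and 2 at an unadjusted p under 0.05).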
